A study of Mus musculus with 42 samples.

Results

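The 10 genes described here encode enzymes of threonine, glycine and serine metabolism, namely Tdh, Gcat, Gldc, Amt, Shmt1, Shmt2, Mthfd2, Phgdh, Psat1 and Psph, out of 20972 genes with a named RefSeq accession on the arrays. Each gene is represented by the brightest of its probes over all 42 arrays. The list was drawn up with earlier results of these data known, and Tdh in particular was included with its fall during differentiation known, so the members count as chosen by their log2 intensities on these same arrays, levels are given as a description and the differences of Tdh between untreated populations are given with no p value. The levels are log2 intensities of mouse mRNA on Agilent one-colour arrays, in which 1 unit is a doubling. Each probe has its own brightness, so a level is compared between samples and never between genes. All 10 chosen probes were well above background on all 42 arrays, and the other probes of Tdh, Shmt1, Phgdh, Psat1 and Psph had profiles over the 14 groups that correlated with those of the chosen ones at 0.98 or more.

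The cells came from a single B6 dual reporter line of mouse embryonic stem cells (mESCs), which carries GFP at the Gsc locus and RedStar at the Hhex locus, grown with LIF and differentiated in monolayer towards anterior definitive endoderm (ADE). Gsc marks the primitive streak and mesendoderm, and Hhex marks definitive endoderm. The 11 untreated groups were mESCs, unsorted cells of day 2 (d2), the Gsc-GFP negative and positive cells of days 3 and 4 (d3 and d4 G- and G+), the d5 G-, Glow and Ghigh cells, and the d6 G+H- and G+H+ cells. The other 3 groups were d6 cells of the same line, with no sort named in the labels: Control cultures in DMSO throughout, ADE_EPZ cultures given 2.5 µM EPZ6438, an inhibitor of the PRC2 enzyme EZH2, during differentiation, and ES_EPZ cultures given it as mESCs before differentiation only. Every group had 3 arrays, whose cultures the labels do not describe further. The p values rest on the spread between arrays of a group, estimated over all 14 groups together.

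Between 24459 and 40398 probes were well above background per array. The defining markers set mESCs apart from the last stage. Gsc was above background on none of the mESC arrays. The mean over 5 endoderm markers was 5.45 to 5.57 on the mESC arrays and 12.89 to 13.09 on the d6 G+H+ arrays. The sorts of 1 day were less cleanly apart. Gsc was above background on all G- arrays, with group means from 8.23 to 9.30. Its mean was higher in the positive sorts, at 11.78 on d3, 11.71 on d4, 10.69 ± 1.53 in Glow and 12.95 ± 0.97 in Ghigh cells. Hhex was close between the d6 sorts, at 12.63 ± 0.19 with H+ and 12.17 ± 0.43 with H-. The EPZ6438 series was hybridised on 3 slides of its own and the untreated series on 5 others, so a difference between the series and a difference of batch cannot be told apart. The groups set against each other in a test were therefore always of 1 series. The fit held all 14 groups, so the spread behind each SE and p value was estimated over both series. Ranges, orders and correlations over all 14 groups cross the series and are descriptions only. Fewer cells of a type and less RNA per cell also cannot be told apart in these bulk samples.

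Threonine dehydrogenase (TDH) oxidises threonine in the mitochondria of the mouse, and GCAT splits the product with coenzyme A into glycine and acetyl-CoA. Mouse ES cells are known for their dependence on this route, which feeds glycine into the one-carbon pool used for nucleotides and methylation. Glycine is cleaved by the glycine cleavage system, of which GLDC and AMT are subunits, or is exchanged with serine by SHMT1 in the cytosol and SHMT2 in mitochondria. MTHFD2 carries the resulting one-carbon unit forward in mitochondria. Serine itself is made from a glycolytic intermediate by PHGDH, PSAT1 and PSPH in turn.

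Tdh had the widest range of the 10 genes, 9.36 log2 units over the 14 group means, against a median of 0.91 over all genes. Only 0.0286% of genes had a range at least as wide. Its level on the 3 mESC arrays was 15.58, 15.05 and 15.53, and on the d2 arrays 14.11, 13.17 and 13.58. The d2 values were all lower than those of mESCs, with a difference of the means of -1.77.

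At d3 the sorted populations were separated by their Tdh level. The G- cells read 14.26, 14.77 and 13.54, and the G+ cells 10.94, 10.30 and 9.35. No G+ value reached any G- value, and the difference of the means, -3.99 (SE 0.40), is a 15.9-fold lower level in G+ cells. The spread between the G+ arrays was wide, with an SD of 0.80.

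The same order was seen on d4 and d5. At d4 the G- cells read 12.97, 13.33 and 12.99 and the G+ cells 7.56, 8.92 and 8.18. On d5 the G- population read 11.85, 12.62 and 11.40, the Glow cells 7.42, 8.22 and 7.19, and the Ghigh cells 6.59, 6.62 and 6.31. Thus the 3 populations of d5 did not overlap and were ordered G-, Glow, Ghigh. The differences were -4.88 (SE 0.40) for d4 G+ against G-, -4.35 for d5 Glow against G- and -5.45 for d5 Ghigh against G-. From d3 to d4 the difference itself moved by -0.88 (SE 0.56), with a 95% interval of -2.02 to 0.25.

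Tdh was also lower in later G- cells, which were sorted as Gsc-GFP negative. The mean of the G- cells was 14.19 ± 0.62 (SD, n = 3) on d3, 13.10 ± 0.21 on d4 and 11.96 ± 0.61 on d5. By d6 the level was 5.73, 6.28 and 6.13 in G+H- cells and 5.83, 6.11 and 6.15 in G+H+ cells, and these populations overlapped. The G+H+ mean of 6.03 was 9.36 (SE 0.40) below that of mESCs, or 656-fold. Of the 13 gaps between neighbours in the order of the 14 means, 5 were wider than the sum of the SDs of both groups, among them the gaps below mESCs and below d5 G-.

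**Figure D1:**
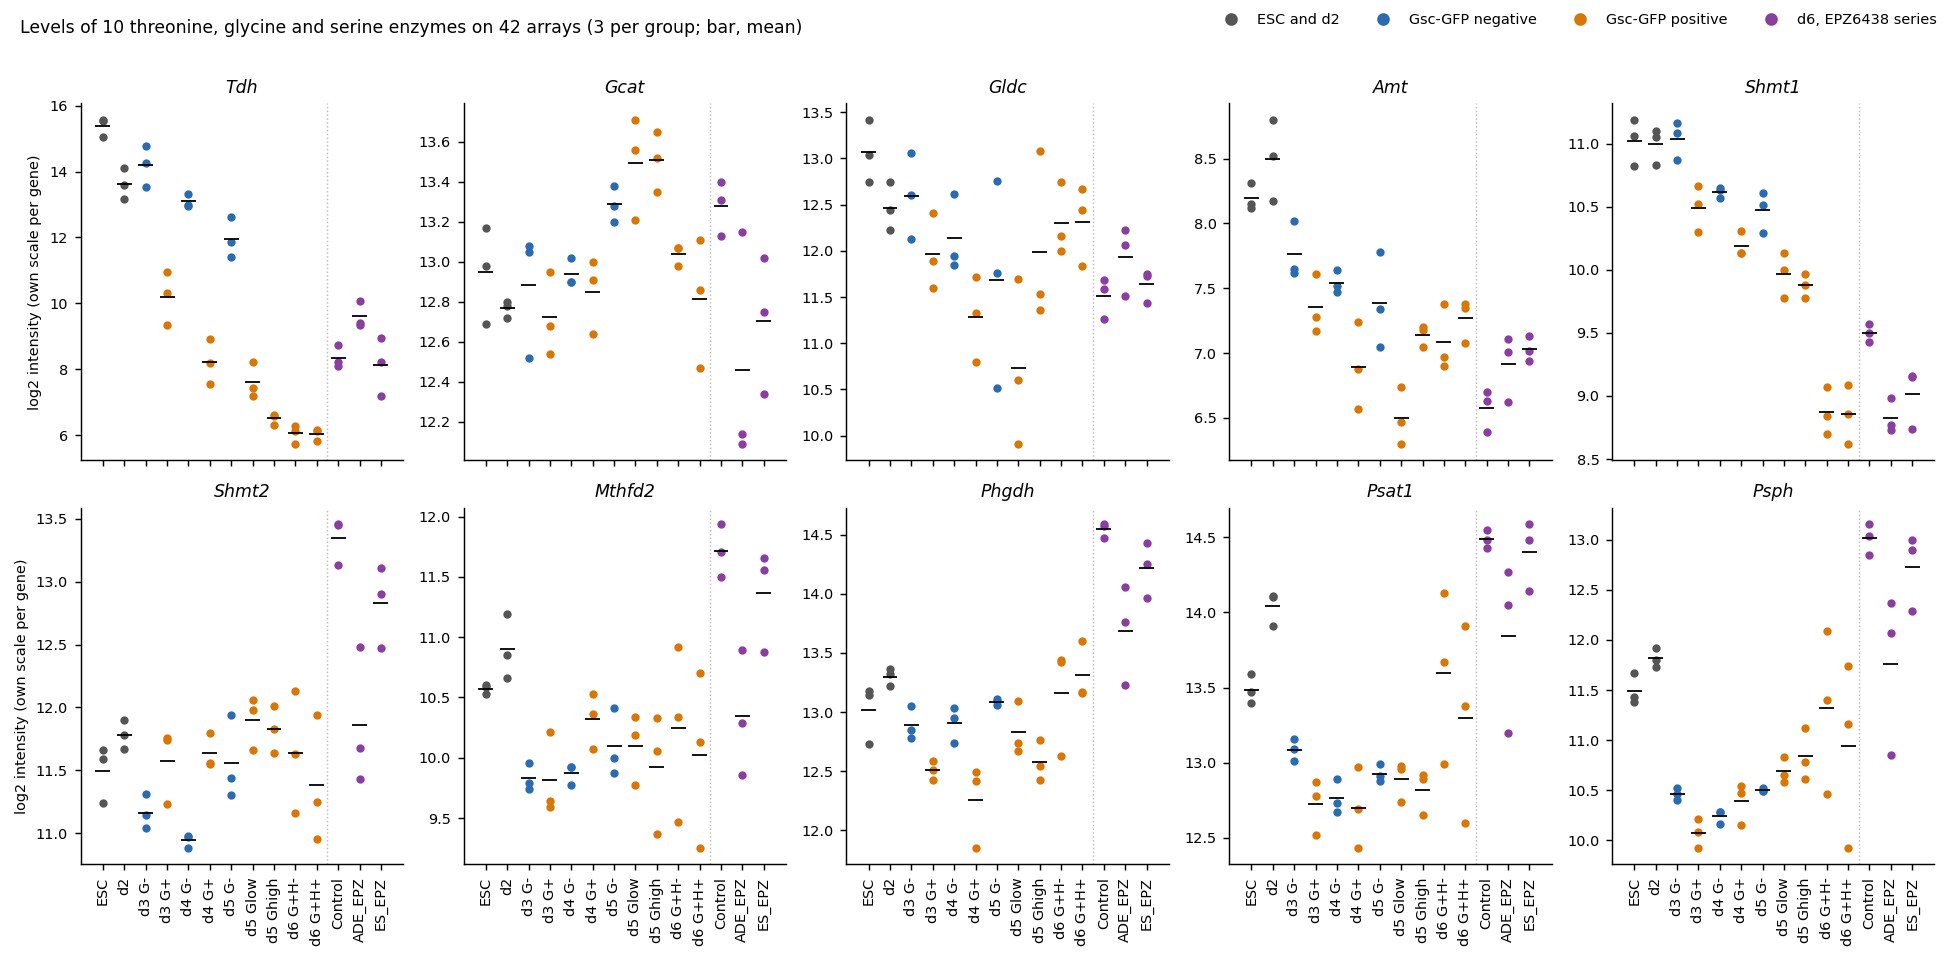
Log2 intensity of the 10 genes on each of the 42 arrays, with 1 panel and 1 vertical scale per gene, groups along the horizontal axis, points for arrays and bars for the mean of 3. Tdh went from 15.39 in mESCs to 6.03 in d6 G+H+ cells, whereas Shmt2, Mthfd2, Phgdh, Psat1 and Psph had their highest mean in the Control cultures to the right of the dotted line, which were hybridised apart from the untreated arrays.

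Gcat, which encodes the enzyme that acts directly after TDH, moved far less. Its group means lay between 12.46 ± 0.60 in ADE_EPZ and 13.51 ± 0.15 in d5 Ghigh cells, a range of 1.05, and 42.6% of genes had a range at least as wide. With normalisation within each series the range was 1.75. Over the 11 untreated groups the range was 0.79. In the order of all 14 groups only the gap below Control was wider than the summed SDs of its neighbours. The mESC arrays read 13.17, 12.69 and 12.98 and the d6 G+H+ arrays 12.47, 13.11 and 12.86, which overlap, with a difference of -0.13 (95% interval -0.56 to 0.30). Across the 14 groups Gcat and Tdh had a correlation of -0.24, given as a description over means that share arrays and batches.

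The glycine cleavage genes Gldc and Amt were correlated with each other at 0.81 over the 14 groups. Gldc was highest in mESCs at 13.07 ± 0.33 and lowest in d5 Glow cells at 10.73 ± 0.89, but no gap between neighbouring groups was wider than their SDs. Its d5 arrays were spread widely in each population, with replicate 3 the highest in each: the G- population read 10.52, 11.76 and 12.76, the Glow population 9.91, 10.60 and 11.69, and the Ghigh population 11.36, 11.53 and 13.08. Gldc was lower in the Gsc positive array of every same-numbered pair at d3, at d4 and in d5 Glow cells. It passed in none of the 12 comparisons, but did pass in d5 Glow cells with slide as a fixed block. With the replicate number as a block it did not pass at d3, at d4 or in d5 Glow cells. That block fits the same replicate effects in all 14 groups, so it does not test the pairs of 1 day, which were not tested. Amt was highest at d2 with 8.50 ± 0.32 and lowest in d5 Glow cells with 6.50 ± 0.22. It read 8.31, 8.12 and 8.15 in mESCs and 7.38, 7.08 and 7.35 in d6 G+H+ cells, and the groups did not overlap.

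The cytosolic and the mitochondrial serine hydroxymethyltransferase had different profiles, with a correlation of -0.44 between Shmt1 and Shmt2. Shmt1 kept to 10.99 to 11.04 in mESCs, d2 cells and d3 G- cells, and had a lower mean in Gsc positive than in Gsc negative cells of each day. It read 10.30, 10.52 and 10.66 in d3 G+ cells against 11.08, 11.16 and 10.87 in d3 G- cells. It then read 9.97, 9.88 and 9.78 in d5 Ghigh cells and 8.62, 8.86 and 9.09 in d6 G+H+ cells. Shmt1 had the profile most like that of Tdh among the members, at 0.82 over 14 groups and 0.91 over the 11 untreated groups. Shmt2 lay between 10.94 ± 0.06 in d4 G- cells and 11.90 ± 0.21 in d5 Glow cells in the untreated series. It was 13.35 ± 0.19 in the Control cultures, which were hybridised apart.

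Of the serine synthesis genes, Psph and Psat1 shared a profile that differed from that of Tdh. Phgdh was less like Psph, with a correlation of 0.63 over the 11 untreated groups beside 0.92 for Psat1. The differences of Phgdh between Gsc positive and negative cells were -0.38 at d3, -0.65 at d4, -0.25 in d5 Glow and -0.51 in d5 Ghigh cells. Those of Psph were -0.39, 0.14, 0.18 and 0.34. Psph, the phosphatase of the last step, went from 11.82 ± 0.10 at d2 to 10.46 ± 0.06 in d3 G- cells and 10.07 ± 0.14 in d3 G+ cells, and was higher again at d6 with 11.32 ± 0.81 and 10.94 ± 0.93. Psat1, the aminotransferase of the middle step, went from 14.04 ± 0.11 at d2 to 13.09 ± 0.08 and 12.72 ± 0.18 at d3 and was 13.60 ± 0.57 and 13.29 ± 0.65 at d6. The wide SDs at d6 had the same order of arrays in both populations. Psat1 read 13.67, 12.99 and 14.13 on replicates 1, 2 and 3 of G+H- cells and 13.38, 12.60 and 13.91 on those of G+H+ cells, so replicate 2 was the lowest and replicate 3 the highest in both. The same order was found for Psph, with 11.40, 10.46 and 12.09 and then 11.16, 9.92 and 11.74, and for Mthfd2, with 10.34, 9.47 and 10.92 and then 10.13, 9.25 and 10.70. Shmt2 had it too, from 11.16 to 12.13 in G+H- cells and from 10.95 to 11.94 in G+H+ cells. Thus the level of these genes at d6 differed more between replicates than between the G+H- and G+H+ populations.

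Of the 45 pairs of members, 10 had a correlation above 0.8 over the 14 group means, and 25 were below 0. The highest were Psat1 with Psph at 0.97, Mthfd2 with Psph at 0.93, Phgdh with Psat1 at 0.92 and Phgdh with Psph at 0.91. Over the 11 untreated groups alone these were 0.92, 0.82, 0.76 and 0.63, whereas Shmt2 with Phgdh went from 0.76 to -0.14, so the likeness was weaker without the 3 groups hybridised apart.

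A call required a log2 difference of 1.5 or more in either direction with an adjusted p not above 0.01, the thresholds of the study. Adjustment was over all probes of a comparison. As a wider rule, passing means an adjusted p not above 0.05, whatever the size of the difference. Beside each count of members called or passing in the main fit stands the share of all 20972 genes that met the same rule. Beside a count at an unadjusted p under 0.05 stands the number of the 55681 probes that had one. Counts with an array left out or under another setting have no share beside them. For d2 against mESCs 1.72% of genes were called and 10.4% passed. Tdh met both rules, and since it was chosen for its fall nothing is read from it. Of the other members 0 passed in limma, and 1 had an unadjusted p under 0.05 (Psat1, with a difference of 0.55), beside 8636 probes. For d3 G- against mESCs 0 members were called in limma (2.41%), 4 had an unadjusted p under 0.05 (10714 probes), and Psph alone passed (14.4%). Psph read 11.67, 11.43 and 11.38 in mESCs and 10.52, 10.46 and 10.40 in d3 G- cells, and fell by 1.03 (SE 0.33, adjusted p = 0.0424 in limma). The adjusted p of Psph was between 0.0705 and 0.16 with any 1 of the 6 arrays left out, and without replicate 1 or 3 of either group 0 members passed. With slide as a fixed block Psph did not pass (adjusted p = 0.118) and Amt did (difference -0.51, adjusted p = 0.0384).

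Between G+ and G- cells of 1 day, Tdh was called in every comparison and no other member was. Tdh was called at d3 (1.80% of genes), d4 (2.29%), and in the Glow (0.768%) and Ghigh (2.58%) cells of d5. Since Tdh was chosen for this fall, its calls are listed and nothing is read from them. Some other members passed the wider rule with small differences, all of them lower in the Gsc positive cells. At d3 these were Shmt1 at -0.54 (SE 0.14, adjusted p = 0.0188 in limma), beside Tdh, with 7.25% of genes passing. At d4 they were Amt at -0.65 (SE 0.19, adjusted p = 0.0364) and Phgdh at -0.65 (SE 0.20, adjusted p = 0.0495), with 8.65% of genes passing. In d5 Glow cells it was Amt at -0.89 (SE 0.19, adjusted p = 0.00623; 3.16% of genes) and in d5 Ghigh cells Shmt1 at -0.60 (SE 0.14, adjusted p = 0.00751; 8.86% of genes).

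These smaller differences were lost with single arrays left out. At d3 Tdh alone passed without replicate 1 or 2 of either population. At d4 Tdh alone passed without any 1 of the arrays except replicate 2 of G+. At d5 it alone passed without replicate 2 of G- in either comparison, and without replicate 1 of G- 4 members passed in Glow cells, Gldc and Shmt1 being added. Shmt2 had the largest difference in the other direction, 11.63 ± 0.14 against 10.94 ± 0.06 in G+ and G- cells of d4, but its difference of 0.69 had an adjusted p of 0.114. When the d4 difference was tested against the d3 difference, 0 members were called and 0 passed in limma. Of all genes 0% met either rule, and 0 members but 1615 probes had an unadjusted p under 0.05.

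**Figure D2:**
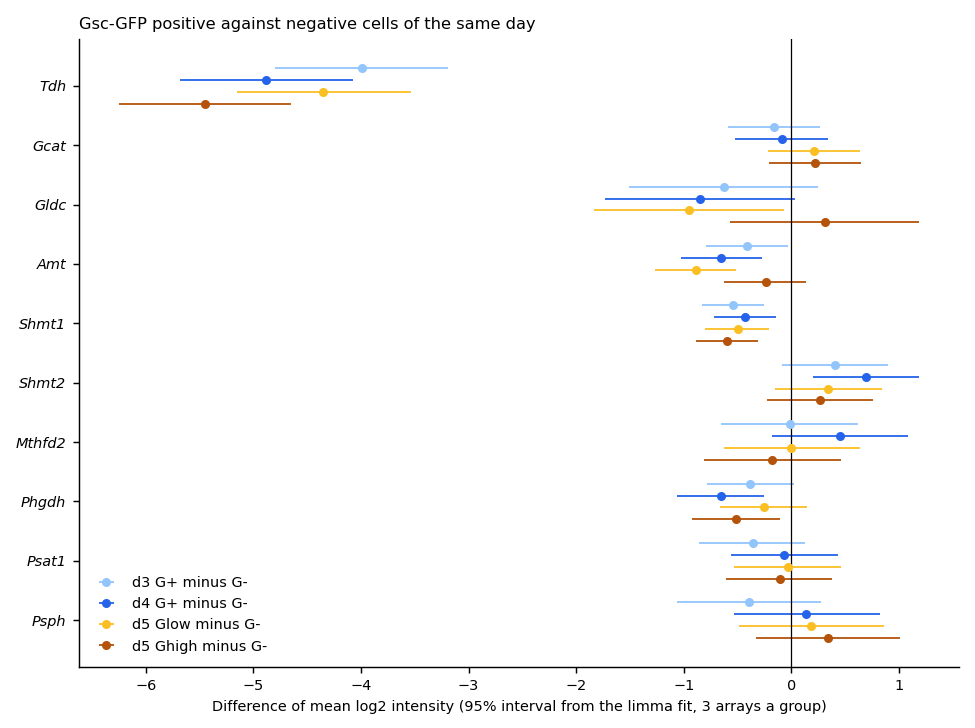
Difference of the mean log2 intensity between Gsc-GFP positive and negative cells of the same day for the 10 genes, with points for the difference and lines for its 95% interval. Tdh lies between -5.45 and -3.99 in the 4 comparisons, and the other 9 genes lie between -0.95 and 0.69.

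In d6 G+H+ cells against d5 Ghigh cells 0 members were called in limma (4.17% of genes) and 3 had an unadjusted p under 0.05 (13408 probes). These 3 also passed the wider rule (21.2% of genes). Shmt1 fell by 1.02 (SE 0.14, adjusted p = 3.8e-06) and was lower in all 9 pairs of arrays. Gcat fell by 0.70 (SE 0.21, adjusted p = 0.0222). Phgdh, the dehydrogenase that opens serine synthesis, rose by 0.73 (SE 0.20, adjusted p = 0.00962), with 13.60, 13.16 and 13.17 in G+H+ cells against 12.76, 12.54 and 12.43. Without replicate 1 of G+H+ cells Shmt1 alone passed. Between the G+H+ and G+H- cells of d6 no member met either rule in limma. There were 0 called (0% of genes), 0 passing (0.00477% of genes) and 0 at an unadjusted p under 0.05 (2507 probes).

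From mESCs to d6 G+H+ cells, Tdh and Shmt1 were called, both lower (11.1% of genes called). Shmt1 fell by 2.17 (SE 0.14, adjusted p = 4.53e-14), a 4.49-fold lower level, with the mESC arrays at 11.19, 10.82 and 11.06. Amt passed the wider rule as well, falling by 0.93 (SE 0.19, adjusted p = 0.000177), and made 3 members of 10 where 37.4% of all genes passed. Without replicate 3 of G+H+ cells, 5 passed, with Mthfd2 and Psph added.

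In cultures given EPZ6438 during differentiation Tdh was higher, and most of the serine and one-carbon genes were lower, than in Control cultures. Against Control, 0 members were called in ADE_EPZ cultures by limma (2.78% of genes). An unadjusted p under 0.05 was found for 8 members, beside 11210 probes. By the wider rule 7 members passed, against 18.1% of all genes. Those passing were Tdh, which was higher, and 6 genes that were lower, namely Gcat, Shmt1, Shmt2, Mthfd2, Phgdh and Psph. The median of the 10 members was -0.75 beside -0.01 over all genes. On each of the 3 slides, which hold 1 array of every regimen, the 7 passing genes differed in the same direction. They passed on these same arrays, so this is a description and adds no support. Amt (0.23 to 0.41) and Psat1 (-1.34 to -0.21), which did not pass, also kept 1 direction on the 3 slides, and Gldc (-0.08 to 0.81) did not.

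Tdh read 8.22, 8.09 and 8.72 in Control cultures and 9.33, 10.08 and 9.40 in ADE_EPZ cultures. The groups did not overlap, and Tdh rose by 1.26 (SE 0.40, adjusted p = 0.0343), or 2.39-fold. The pass was lost without replicate 1 or 2 of Control or replicate 2 or 3 of ADE_EPZ, with differences from 1.02 to 1.36. Pluripotency markers did not move as 1 group. The mean over 6 of them (Pou5f1, Nanog, Zfp42, Esrrb, Klf4 and Sox2), all above background on all these arrays, was 7.53 to 7.99 in Control and 8.17 to 8.45 in ADE_EPZ. The means were higher in ADE_EPZ for Esrrb (7.61 ± 0.41 and 9.20 ± 0.36), Zfp42 (7.87 ± 0.37 and 9.38 ± 0.31) and Pou5f1 (7.45 ± 0.31 and 8.19 ± 0.53). Nanog read 6.36 ± 0.27 and 6.44 ± 0.30, and Klf4 and Sox2 were lower, at 9.17 ± 0.51 and 8.38 ± 0.30 and at 8.45 ± 0.01 and 8.14 ± 0.30. The part of these markers in the difference of Tdh was not tested.

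Shmt2 had the largest difference from Control among the members. It read 13.45, 13.13 and 13.46 in Control cultures and 11.68, 11.43 and 12.48 in ADE_EPZ cultures, with no overlap, and fell by 1.49 (SE 0.24, adjusted p = 7.61e-05), or 2.80-fold. Mthfd2, which acts next in the mitochondrial route, read 11.94, 11.50 and 11.71 against 10.29, 9.86 and 10.89 and fell by 1.37 (SE 0.31, adjusted p = 0.00268). Shmt2 and Mthfd2 were just under the 1.5 limit of a call. Scaling by the 75th percentile put both over it at -1.57 and -1.54. Without replicate 2 of Control Shmt2 was called at -1.60, and without replicate 3 of ADE_EPZ Shmt2, Mthfd2 and Psph were called at -1.79, -1.64 and -1.56.

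The means of the serine synthesis genes Psph, Phgdh and Psat1 were lower in ADE_EPZ than in Control cultures, and Psat1 did not pass. Psph read 13.16, 13.04 and 12.85 in Control and 12.07, 10.85 and 12.37 in ADE_EPZ cultures and fell by 1.26 (SE 0.33, adjusted p = 0.00963). Phgdh read 14.59, 14.47 and 14.57 against 13.76, 13.23 and 14.06 and fell by 0.86 (SE 0.20, adjusted p = 0.00313). Psat1 read 14.55, 14.48 and 14.43 against 14.05, 13.20 and 14.27, a difference of -0.65 (SE 0.24) whose adjusted p was 0.0926. Replicate 2 of ADE_EPZ was the lowest array for each of the 3 genes, and without it the differences of Psph and Phgdh were -0.80 and -0.64 with adjusted p values of 0.151 and 0.0511. Shmt2, Mthfd2, Shmt1 and Gcat, 4 members, passed without that array, and Tdh did not.

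Shmt1 and Gcat were lower too. Shmt1 read 9.43, 9.50 and 9.57 in Control and 8.98, 8.77 and 8.73 in ADE_EPZ cultures and fell by 0.68 (SE 0.14, adjusted p = 0.00134). Gcat fell by 0.82 (SE 0.21, adjusted p = 0.00822), although its arrays overlapped, with 13.31, 13.40 and 13.13 in Control and 12.09, 13.15 and 12.14 in ADE_EPZ cultures. Gcat did not pass without replicate 1 or 3 of ADE_EPZ (adjusted p = 0.089 and 0.0797). Gldc and Amt had differences of 0.42 and 0.34 with adjusted p values of 0.719 and 0.323. Markers of some other cell types differed between these regimens as well. The mean over 5 endoderm markers was 11.21 to 11.75 in Control and 12.41 to 12.85 in ADE_EPZ cultures, and that over 5 mesoderm markers 9.58 to 9.81 and 8.32 to 8.79. The mean over 3 trophoblast markers was 7.80 to 8.42 and 8.89 to 9.36, and that over 5 markers of primitive streak and mesendoderm 10.45 to 10.47 and 9.67 to 10.05. The markers of this last list went both ways. The means of Gsc (11.98 in Control and 12.97 in ADE_EPZ) and Lhx1 (10.73 and 12.12) were higher in ADE_EPZ. Those of Mixl1 (9.61 and 6.26), Eomes (13.78 and 12.37) and T (6.18 and 5.73) were lower. All these markers were above background on every array of both groups except 1 of the last list in ADE_EPZ. Within the endoderm list Cxcr4 (9.85 and 9.90) and within the mesoderm list Kdr (10.84 and 10.85) hardly differed. The ranges of the neural (5.24 to 5.70 and 5.16 to 5.68) and visceral endoderm lists (6.70 to 7.37 and 6.51 to 7.46) overlapped. So did those of the fibroblast list (7.68 to 8.44 and 8.28 to 9.40). Of the neural list Pax6 and Neurog2 were above background on no ADE_EPZ array. The part of all these markers in the results was not tested.

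**Figure D3:**
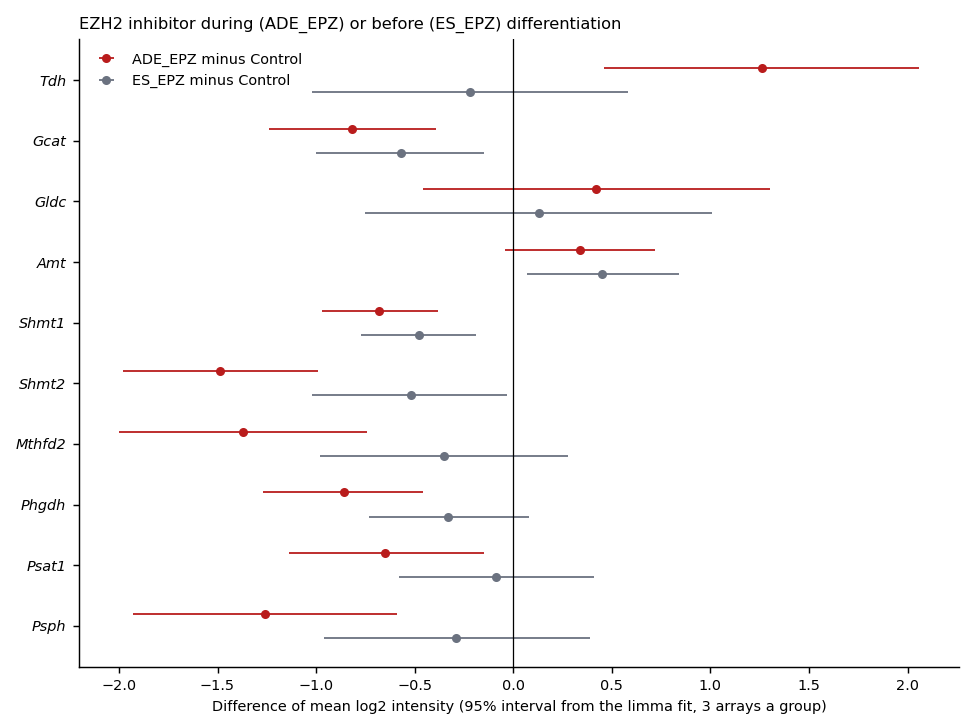
Difference of the mean log2 intensity from the Control cultures for cultures given EPZ6438 during (ADE_EPZ) or before (ES_EPZ) differentiation, with points for the difference and lines for its 95% interval. In ADE_EPZ Tdh lies at 1.26 and Shmt2, Mthfd2 and Psph lie between -1.49 and -1.26, while the ES_EPZ points lie between -0.57 and 0.45.

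When the inhibitor was given before differentiation only, 0 members were called (0.434% of genes) and 0 passed (3.29% of genes) in limma. An unadjusted p under 0.05 was found for 4 members, beside 7017 probes. The differences from Control ran from -0.57 for Gcat (95% interval from -1 to -0.15) to 0.45 for Amt (95% interval 0.07 to 0.84). Tdh read 8.23, 7.19 and 8.94 and overlapped the Control arrays. Shmt1, at -0.48 with an adjusted p of 0.0759, was the member nearest to passing and did pass in 4 of the alternative settings. The ES_EPZ arrays were closer to Control than to ADE_EPZ in the mean of Shmt2, Mthfd2, Phgdh, Psat1 and Psph.

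The regimens were also compared directly, since ADE_EPZ and ES_EPZ share the Control arrays. In ADE_EPZ against ES_EPZ 0 members were called (0.134% of genes) and 0 passed (1.14% of genes) in limma. An unadjusted p under 0.05 was found for 6 members, beside 4984 probes. Tdh differed by 1.48 (SE 0.40, adjusted p = 0.0788) and Shmt2 by -0.97 (SE 0.24, adjusted p = 0.0551). Same-numbered arrays of these regimens deviated together, but each such pair was also on 1 slide, so pairing and slide cannot be told apart. With replicate number as a block over all 14 groups Shmt2 passed in limma with an adjusted p of 0.0292. With slide as a fixed block Tdh passed and Shmt2 did not. Without replicate 3 of ES_EPZ Tdh and Shmt2 passed, and without replicate 3 of ADE_EPZ Shmt2 did. On 1 of the 3 slides, slide 6, the ES_EPZ and ADE_EPZ arrays were nearly equal, with Shmt2 at 12.47 and 12.48 and Mthfd2 at 10.88 and 10.89, whereas on slides 7 and 8 ADE_EPZ was the lower for all 5 mitochondrial and serine synthesis genes.

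**Figure D4:**
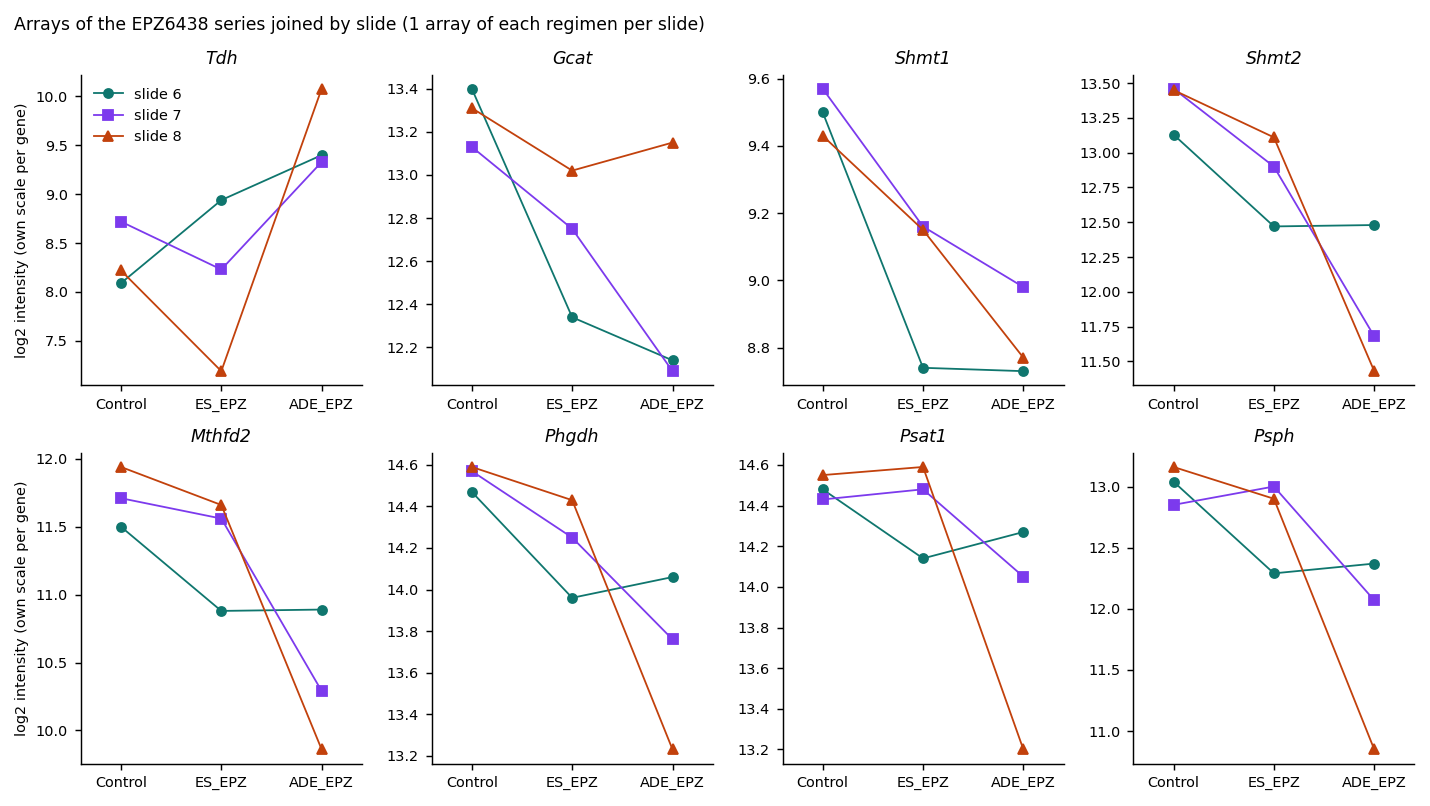
Log2 intensity of 8 members on the 9 arrays of the EPZ6438 series, with the 3 regimens along the horizontal axis and lines joining the arrays of 1 slide. On each slide Tdh is higher and the other 7 genes are lower in ADE_EPZ than in Control cultures, and on slide 8 Psph goes from 13.16 to 10.85.

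The promoters of 5 genes are shown so that they can be compared by sequence. These genes had their highest group mean in Control cultures, a ranking that crosses the series. Of these genes Shmt2, Mthfd2, Phgdh and Psph passed as lower in ADE_EPZ cultures and Psat1 did not. The sequences are RefSeq's for build GRCm38.p6, the 120 bases before the annotated start, written from 5′ to 3′ on the strand of the gene. RefSeq promoters matched 9 of the 10 members by symbol, and Tdh had no entry. Capitals mark CCAAT or its reverse complement ATTGG.
Phgdh, chr3:98339970-98340089, minus strand: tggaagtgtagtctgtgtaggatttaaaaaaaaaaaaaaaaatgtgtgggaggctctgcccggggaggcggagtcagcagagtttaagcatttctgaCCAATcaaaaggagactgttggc
Psat1, chr19:15925060-15925179, minus strand: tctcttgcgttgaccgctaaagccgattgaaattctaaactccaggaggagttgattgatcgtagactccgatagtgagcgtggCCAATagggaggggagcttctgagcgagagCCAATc
Psph, chr5:129787254-129787373, minus strand: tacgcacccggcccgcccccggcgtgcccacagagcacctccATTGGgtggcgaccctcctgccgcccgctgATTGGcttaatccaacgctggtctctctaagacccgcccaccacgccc
Mthfd2, chr6:83317605-83317724, minus strand: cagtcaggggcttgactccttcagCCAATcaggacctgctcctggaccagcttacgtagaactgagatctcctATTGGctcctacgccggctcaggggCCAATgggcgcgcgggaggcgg
Shmt2, chr10:127522445-127522564, minus strand: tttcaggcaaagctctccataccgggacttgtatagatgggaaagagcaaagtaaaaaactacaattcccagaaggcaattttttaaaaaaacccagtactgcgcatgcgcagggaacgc

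The windows of 300 bases, 250 before and 50 after the start, were searched on both strands. The core TGATGNAA of the element bound by ATF4 with C/EBP, whose letters can overlap those of each of the other motifs searched, was in none of the members and in 3.97% of all promoters. The octamer ATGCAAAT was in none of them and in 1.74% of promoters. The E-box CACGTG, bound by Myc among others, was in that of Gcat, 3 bases after the start, and in 7.15% of promoters. CCAAT, a short motif chosen after the sequences were seen, was in the windows of 7 of the 9 members with an entry, where 41.1% of genes have it. Psat1 has a further RefSeq start whose 120 bases hold none, and Gcat and Shmt2 hold none. The absence of a match says only that the letters are not in the window.

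Genes with the most similar profiles were named by their correlation with a member over the 14 group means, as a description. Closest to Tdh were Mageb16 at 0.989, Usp28 at 0.977, Dppa4 at 0.975, Ephx2 at 0.973 and Fbxo15 at 0.972. Mageb16 read 10.85 in mESCs, 9.70 in d3 G- cells and 6.77 in d3 G+ cells, and Fbxo15 read 13.21, 10.63 and 8.69. All 5 were lower in d6 G+H+ cells than in mESCs. Tdh followed the pluripotency markers with correlations of 0.94 for Sox2, 0.93 for Zfp42, 0.89 for Esrrb, 0.85 for Pou5f1 and Nanog and 0.41 for Klf4.

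Psph was the member with the widest range after Tdh over all 14 groups (2.95), though not over the 11 untreated groups, where its range of 1.75 was narrower than those of Gldc, Shmt1 and Amt. It was closest to Nthl1 at 0.981, Adm2 at 0.980, and to Nars, Cars and Lars at 0.979, 0.978 and 0.975. The latter encode aminoacyl-tRNA synthetases, the enzymes that load asparagine, cysteine and leucine onto tRNA. Nars read 12.39 in Control and 11.44 in ADE_EPZ cultures, Cars 14.37 and 13.63, and Lars 14.81 and 13.87.

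**Figure D5:**
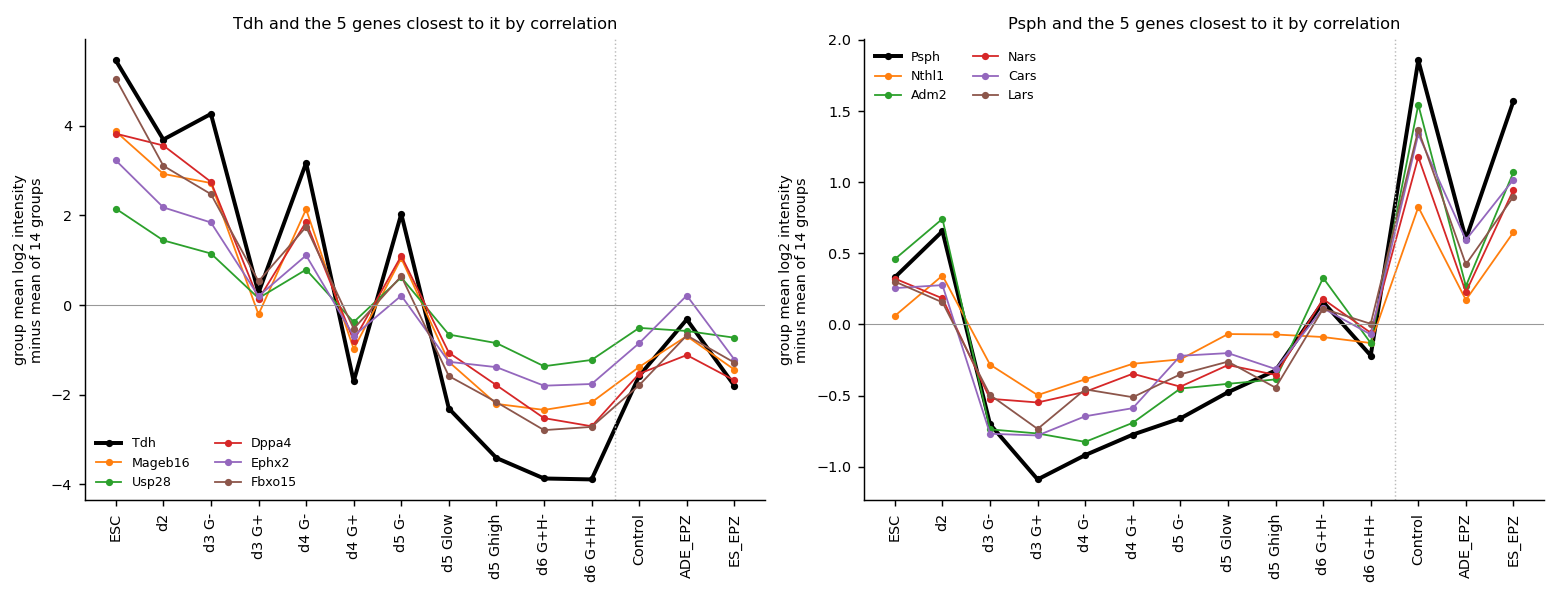
Group means of log2 intensity minus the mean of the 14 groups, for Tdh (left) and Psph (right) in black and for the 5 genes with the highest correlation with each, with groups along the horizontal axis. The Tdh set is highest in mESCs and lower in G+ than in G- cells of each day, whereas the Psph set is lowest in cells of d3 or d4 and highest in Control cultures.

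Among 61 measured genes of neighbouring pathways (Slc6a5 was not measured), 12 were called between d6 G+H+ cells and mESCs. Of these 4 were higher and 8 lower, and the share was 19.7% beside 11.1% of all genes. The lists were chosen with earlier results of these data known. The shares of the 61 genes here and below are therefore descriptions, and nothing is read from an excess. Of 17 folate and one-carbon genes, 5 fell. Folr1, a folate receptor, fell by 3.81 (SE 0.36, adjusted p = 2.5e-10), Mthfd1 by 1.76, Atic and Gart, both of purine synthesis, by 1.91 and 1.51, and Fpgs, which retains folate in the cell, fell by 1.71. Aldh1l1, which oxidises formyl-folate, rose by 3.87 (SE 0.25, adjusted p = 2.81e-14). Of 11 genes of the methionine cycle and transsulfuration, Cbs fell by 3.46 and Cth by 2.91. Of 13 further enzymes, Gamt rose by 2.67 and Sdsl by 1.74, and Pipox fell by 4.23. None of the glycine cleavage partners Gcsh and Dld, of 9 transporters or of 9 amino acid response and Myc genes was called there.

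Between the sorted populations Folr1 and Pipox, 2 of 61 or 3.28%, were lower in G+ than in G- cells at d3 (-2.45 and -2.17), where 1.80% of all genes were called, and at d4 (-2.14 and -2.13), where 2.29% were. At d5 Cbs was lower in Glow and in Ghigh cells than in G- cells, by -1.62 and -1.76, and Ghigh cells had higher Aldh1l1 (1.92) and lower Pipox (-2.60). These are 1.64% of the 61 in Glow cells beside 0.768% of all genes, and 4.92% in Ghigh cells beside 2.58%. From d5 Ghigh to d6 G+H+ cells Cbs, Cth and Myc fell by 1.64, 1.81 and 1.58, or 4.92% beside 4.17% of all genes. In d3 G- cells against mESCs Bhmt2 and Dmgdh rose by 1.55 and 1.72 and Folr1 and Pipox differed by -1.53 and -1.99, or 6.56% beside 2.41% of all genes. Bhmt2 and Dmgdh were above background on 2 of the 3 mESC arrays. No listed gene was called between d2 cells and mESCs.

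In ADE_EPZ against Control cultures 3 of the 61 were called, all lower, or 4.92% beside 2.78% of all genes. Cth, which makes cysteine from cystathionine, fell by 2.30 (SE 0.31, adjusted p = 4.99e-06), Slc1a5, a neutral amino acid transporter, by 1.57 (SE 0.32, adjusted p = 0.00094) and Myc by 1.51 (SE 0.19, adjusted p = 2.96e-06). By the wider rule 17 were lower and 3 higher, or 32.8% beside 18.1% of all genes. The lower ones included Mthfd1l at -1.32, which acts after MTHFD2 in mitochondria, Fpgs at -1.34, Atic at -1.23, Slc6a9 at -1.25 and, of 9 amino acid response and Myc genes, Atf4 at -0.71, Ddit3 at -1.39 and Mycn at -0.89. The higher ones included Gcsh at 0.84 and Mthfd2l at 0.76. In ES_EPZ against Control cultures 2 of 61 or 3.28% passed the wider rule, among them Gcsh, which was higher by 0.46, and none was called.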

How the data were processed

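mRNA of 42 samples in 14 groups of 3 was hybridised to Agilent one-colour arrays. Per the labels and the study's methods, the authors read the slides with Agilent Feature Extraction (11.0.1.1 and 12.0.1.1), corrected the background with normexp at an offset of 10, normalised by quantiles and deposited log2 values, which were used as the main values. The authors' scanner files, with intensity values and background flags, served the alternatives, and values recomputed from them correlated with the deposited ones at 0.999989 or more. Of 55681 probes, 27656 carried 20972 gene symbols, named by RefSeq accession with the GRCm38.p6 table, and each gene was represented by its brightest probe.

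The members, pathway lists and markers were chosen with earlier results of these data known. Differences were tested with limma (3.58.1, R 4.3.3; lmFit and eBayes over all 14 groups, no covariates), with Benjamini-Hochberg adjustment over all probes, and the script was tested on simulated data. The 12 comparisons used 2 rules: a call, with an adjusted p not above 0.01 and a log2 difference of 1.5 or more either way, and a wider one, with an adjusted p not above 0.05. With 3 arrays against 3 an exact two-sided permutation test cannot go below 0.1, so none was used. The number of arrays limits the precision. Named beside the members were list genes that met a rule, of which some are not reported here, and the 5 genes correlated most with Tdh and with Psph. Alternatives were recomputed values, normexp offset 50 (or no correction), 75th percentile scaling, quantiles within each series, a background filter, fits of the compared groups only, slide or replicate blocks, all probes of a gene, and leaving out each array.

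The replicate numbers paired the arrays where every same-numbered pair deviated together (correlation above 0.1), a pairing that comes from the data and not from the labels. This was so within d3, d4, d5 and d6, for d6 G+H+ against d5 Ghigh, and for ADE_EPZ against ES_EPZ, where the correlations were 0.32 to 0.47. All pairs of ADE_EPZ with ES_EPZ and some of the others were on 1 slide, so pairing and slide cannot be told apart for them. The replicate block was fitted over all 14 groups at once, also where the arrays did not pair.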

Additional observations from a re-analysis of the deposited data

How the results depend on the processing

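Over 24 differences of members that passed the wider rule and 408 alternative values for them, 360 stayed on their side of the threshold, 48 did not pass and 0 reversed. Scaling by the 75th percentile gave 0 called members for d2 against mESCs and 2 for ADE_EPZ against Control, and moved the median of all genes by 0.11 (d3) and -0.11 (d6 G+H+ against mESCs or d5 Ghigh). With only the compared groups in the fit, 0 members were called or passed in d5 Glow, 1 passed at d3, for d5 Ghigh cells and for d6 G+H+ against d5 Ghigh, and 2 passed in d3 G- against mESCs. The call rule of an adjusted p of at most 0.05 gave 1 member for d3 G- against mESCs, 2 at d3, 3 at d4, 2 in d5 Glow, 2 in d5 Ghigh, 3 in d6 G+H+ against d5 Ghigh and 7 in ADE_EPZ against Control. In d3 G- against mESCs 2 members passed, Tdh being added, with a normexp offset of 50, no background correction, the background filter, slide as a random block, the replicate block or the mean of all probes. The fit of only the compared groups left 5 members passing in ADE_EPZ against Control, without Gcat (adjusted p = 0.113) and Psph (adjusted p = 0.0591), and 8 passed there, Psat1 being added, with 75th percentile scaling (adjusted p = 0.0316) or the mean of all probes (adjusted p = 0.0266). With slide as a fixed block 4 passed in d5 Glow, and 1 (Tdh) in ADE_EPZ against ES_EPZ. In that comparison 1 member (Shmt2) passed with offset 50, no background correction, the background filter or the replicate block, and 2 with slide as a random block (correlation 0.209) or the mean of all probes. In ES_EPZ against Control 1 member (Shmt1) passed with offset 50, the background filter or slide as a fixed or random block. At d4 slide as a fixed block put Shmt1 in the place of Phgdh among the 3 passing. The causes were not tested.

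Leaving out 1 array gave 0 to 1 called members for d2 against mESCs (0 without replicate 1 or 3 of mESCs or replicate 2 or 3 of d2) and 0 to 3 for ADE_EPZ against Control. Members passing the wider rule then ranged from 0 to 1 in d3 G- against mESCs, 1 to 2 at d3, 1 to 3 at d4, 1 to 4 in d5 Glow, 1 to 2 in d5 Ghigh, 1 to 4 in d6 G+H+ against d5 Ghigh, 3 to 5 in d6 G+H+ against mESCs, 4 to 7 in ADE_EPZ against Control and 0 to 2 in ADE_EPZ against ES_EPZ. Quantiles within each series changed the range of group means, for example from 2.95 to 2.27 for Psph, so levels in both series cannot be set on 1 scale beyond this.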
